A study of Mus musculus with 5 samples.

Results

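The genes described here are the 53 listed genes of DNA replication and the G1/S transition, chosen by symbol from a fixed list and all found once each among the 30840 features of the deposited table. All 53 also passed the filter on low counts, so every listed gene was tested. Polyadenylated RNA was measured in sorted hair follicle stem cells of 70-day-old mice (postnatal day 70), in 2 Control and 3 PRC1 i2KO libraries. Polycomb repressive complex 1 (PRC1) places ubiquitin on histone H2A by means of the ligases Ring1a and Ring1b, which the genes Ring1 and Rnf2 encode, and the series title ties that mark to stem cell quiescence.

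Controls had the genotype Ring1a-/-, Ring1bflox/flox, and the PRC1 i2KO animals K15-CrePR1:Ring1a-/-, Ring1bflox/flox, so that both groups lack Ring1a throughout and only PRC1 i2KO carries the Cre. K15-CrePR1 is a Cre recombinase driven in keratin 15 cells and activated by the progesterone antagonist RU-486, so deletion of Ring1b takes place only in cells with that promoter active during treatment. Both groups received 1% RU-486 on the skin every day for 10 days from postnatal day 50, and cells were taken 10 days after the last dose. From each mouse skin, cells that were EpCAM(+), Sca1(-), α6-integrin(high) and CD34(+) were sorted, 50000 per library. Separate animals are not named in the labels for libraries of 1 group, and the spread behind each p-value may be technical.

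Libraries held 11626006 to 43307694 counts, and 1 count was worth 0.0203 to 0.0793 CPM (counts scaled by library size and edgeR's TMM factors). The bulge keratin gene Krt15 was at 3418 to 5076 CPM in the 5 libraries. The sort markers Itga6 (α6-integrin) and Epcam overlapped between the groups. Itga6 was at 310 and 321 against 285, 345 and 306 CPM, and Epcam at 73.4 and 84.3 against 106, 79.9 and 94.1 CPM, controls first. For 2 sort markers, Cd34 and Ly6a, the groups did not overlap, though neither difference passed after adjustment. Of all genes, 15.3% lay below and 14.6% above both controls in every PRC1 i2KO library. Cd34 lay below both controls throughout, at 477 and 326 against 298, 292 and 164 CPM (log2 fold change -0.68 (edgeR adjusted p = 0.422), unadjusted p = 0.0366). Ly6a, which encodes the excluded marker Sca1, lay above them, at 1.62 and 0.793 against 3.12, 4.78 and 4.93 CPM (log2 fold change 1.79 (edgeR adjusted p = 0.398), unadjusted p = 0.0302). The 18 bulge markers all had counts in every library. Of the targeted genes, Rnf2 overlapped between the groups in CPM, at 27.7 and 37.5 against 39.9, 33.1 and 36.4 CPM. In TPM Rnf2 was lower in all PRC1 i2KO libraries, at 25.1 and 24.4 against 16.8, 12.9 and 11.7 TPM, as were 23.0% of all genes. Ring1 overlapped at 1.87 and 4.998 against 2.29, 1.58 and 3.67 CPM. Counts over a whole gene include exons that stay, so they are no check of the labels. Mitochondrial ribosomal RNA took 16.7% and 22.6% of counts in Control 2 and 3 and 29.7%, 21.4% and 32.0% in PRC1 i2KO 1, 2 and 3.

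Before a cell copies its DNA, the origin recognition complex and its partners CDC6 and CDT1 load the MCM2-7 helicase onto origins in G1. Kinases then convert the helicase into its active form with CDC45 and GINS, and polymerases with their sliding clamp, PCNA, copy both strands. Most of these genes are switched on by E2F transcription factors once cyclin-dependent kinases inactivate the retinoblastoma proteins. Bulge stem cells spend most of the hair cycle out of the cell cycle and divide briefly when a new hair grows, and quiescent cells generally carry little of this machinery.

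The promoters of 44 of the 53 genes were found in the RefSeq table of assembly GRCm38.p6, each as 250 bases before and 50 bases after an annotated start, and the other 9 had no entry there. They were searched on both strands for the E2F letters TTTCCCGC, TTTGGCGC, TTTCGCGC and TTTGCCGC, of which several can overlap. At least 1 of these words stood in 16 of the 44 genes (36.4%), against 2.60% of all genes in the table, or in 16 of 53 windows (30.2%) against 2.26% of all windows. The word CCAAT stood in 58.5% of the members' windows and in 37.4% of all windows. These are matches of letters and no measured binding sites. The median log2 fold change (PRC1 i2KO over Control) was 0.80 over the 16 genes with an E2F word and 0.45 over the 28 without one, as a description. For CCAAT the order was the opposite, with 0.45 over the 27 genes with the word and 1.395 over the 17 without it. The windows are given for Mcm5 and Rrm2, which had the lowest adjusted p-values of the helicase and nucleotide genes, and Mcm6, which had the most E2F words of any member but lay inside or below the control range in 1 PRC1 i2KO library. Capitals mark the E2F words, and Rrm2 has none in this window.
Mcm5 (chr8:75109259-75109558, + strand): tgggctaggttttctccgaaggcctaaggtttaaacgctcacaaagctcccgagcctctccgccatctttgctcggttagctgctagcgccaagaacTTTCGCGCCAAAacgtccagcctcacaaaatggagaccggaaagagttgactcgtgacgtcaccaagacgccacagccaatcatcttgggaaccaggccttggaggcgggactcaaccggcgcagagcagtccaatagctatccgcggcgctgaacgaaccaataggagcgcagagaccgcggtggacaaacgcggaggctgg
Mcm6 (chr1:128359656-128359955, - strand): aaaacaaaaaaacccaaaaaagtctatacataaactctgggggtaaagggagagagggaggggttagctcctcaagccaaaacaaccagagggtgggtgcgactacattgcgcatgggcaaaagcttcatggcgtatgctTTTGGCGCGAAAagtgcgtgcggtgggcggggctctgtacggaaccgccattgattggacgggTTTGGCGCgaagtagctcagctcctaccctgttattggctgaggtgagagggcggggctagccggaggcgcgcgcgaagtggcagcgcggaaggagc
Rrm2 (chr12:24708004-24708303, + strand): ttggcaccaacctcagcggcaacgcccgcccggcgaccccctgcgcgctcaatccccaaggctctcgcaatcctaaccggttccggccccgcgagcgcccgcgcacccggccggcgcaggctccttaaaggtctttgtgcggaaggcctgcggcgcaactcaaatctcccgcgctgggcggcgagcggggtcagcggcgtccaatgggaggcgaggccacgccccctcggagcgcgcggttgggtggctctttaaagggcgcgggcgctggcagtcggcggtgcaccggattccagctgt
In Mcm5 the 12 capitals hold 2 overlapping words, one on each strand, and begin 153 bases before the annotated start. Cdc7, with windows at 2 annotated starts, had no E2F word in either.

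By edgeR's quasi-likelihood test across all 22181 genes tested, 0 of the 53 members rose and 0 fell at an adjusted p under 0.05, where 0.126% of all genes rose and 0.00% fell. The lowest adjusted p of a member was 0.197. At an unadjusted p under 0.05, 10 members were higher in PRC1 i2KO (18.9%, against 7.43% of all genes) and 0 were lower (3.51% of all genes). DESeq2 called 3 members higher, Rrm2, Mcm5 and Cdc7 (5.66%, against 3.57% of all genes with an adjusted p), and 0 lower, while limma-voom called 0 and 0. On simulated counts for this comparison 26.3% of DESeq2's calls fell on unchanged genes, against 3.60% of edgeR's. Those counts were drawn from edgeR's own scaling and trend of spread, without the differences between PRC1 i2KO libraries. They can therefore favour edgeR and do not judge the DESeq2 calls made here. The log2 fold change was above 0 for 41 of the 53 members (77.4%), against 50.4% of all genes, with a median of 0.45 where that of all genes was 0.0053. The members were chosen with earlier results of these data known, so these shares describe them and are no test.

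The PRC1 i2KO libraries differed from each other. In PRC1 i2KO 3, 40 of 53 members lay above both controls (75.5%, against 35.5% of all genes), in PRC1 i2KO 1 30 members did (56.6%, against 36.3%), and in PRC1 i2KO 2 only 19 (35.8%, against 35.4%). PRC1 i2KO 2 therefore stood at the background of all genes, and it had 19 members below both controls as well (36.2% of all genes). PRC1 i2KO 1 and 3 had 15 and 5 members below both controls, against 39.6% and 35.3% of all genes. The median shift from the control mean on the log2(CPM + 1) scale was 0.37, 0.029 and 0.85 in PRC1 i2KO 1, 2 and 3. Of the 3 PRC1 i2KO libraries, PRC1 i2KO 3 was the highest for 35 members (66.0%, against 33.4% of all genes) and PRC1 i2KO 2 the lowest for 30 (32.4% of all genes). Without PRC1 i2KO 3 the members' median log2 fold change was 0.21, with 4 members higher and 2 lower at an unadjusted p under 0.05, while without PRC1 i2KO 2 it was 0.62, with 17 higher and 0 lower.

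**Figure D1:**
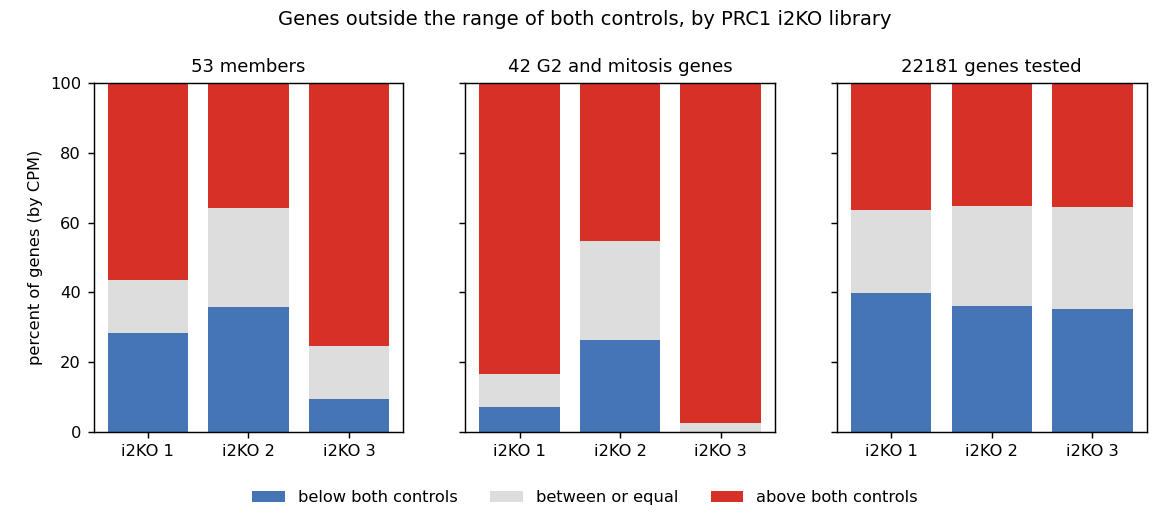
Stacked bars give the percent of genes whose CPM lay below both controls (blue), between or equal to them (grey) or above both (red), for each PRC1 i2KO library, over the 53 members, 42 G2 and mitosis genes and all 22181 genes tested. PRC1 i2KO 2 has the smallest red part among the members (35.8%) and PRC1 i2KO 3 the largest (75.5%), while all genes have nearly equal red parts.

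Scarce members carried larger differences than abundant ones. The 28 members with a mean below 10 CPM over all 5 libraries had a median log2 fold change of 1.23 and 24 were positive (85.7%), whereas all 13259 tested genes of that level had a median of -0.15, with 44.4% positive. The 25 members at or above 10 CPM had a median of 0.25, with 17 positive (68.0%), where all 8922 genes of that level had 0.088, with 59.2% positive. In PRC1 i2KO 3 the median shift was 1.42 for the scarce and 0.56 for the abundant members, in PRC1 i2KO 2 it was 0.21 and -0.073, and in PRC1 i2KO 1 the levels hardly differed, at 0.42 and 0.35.

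**Figure D2:**
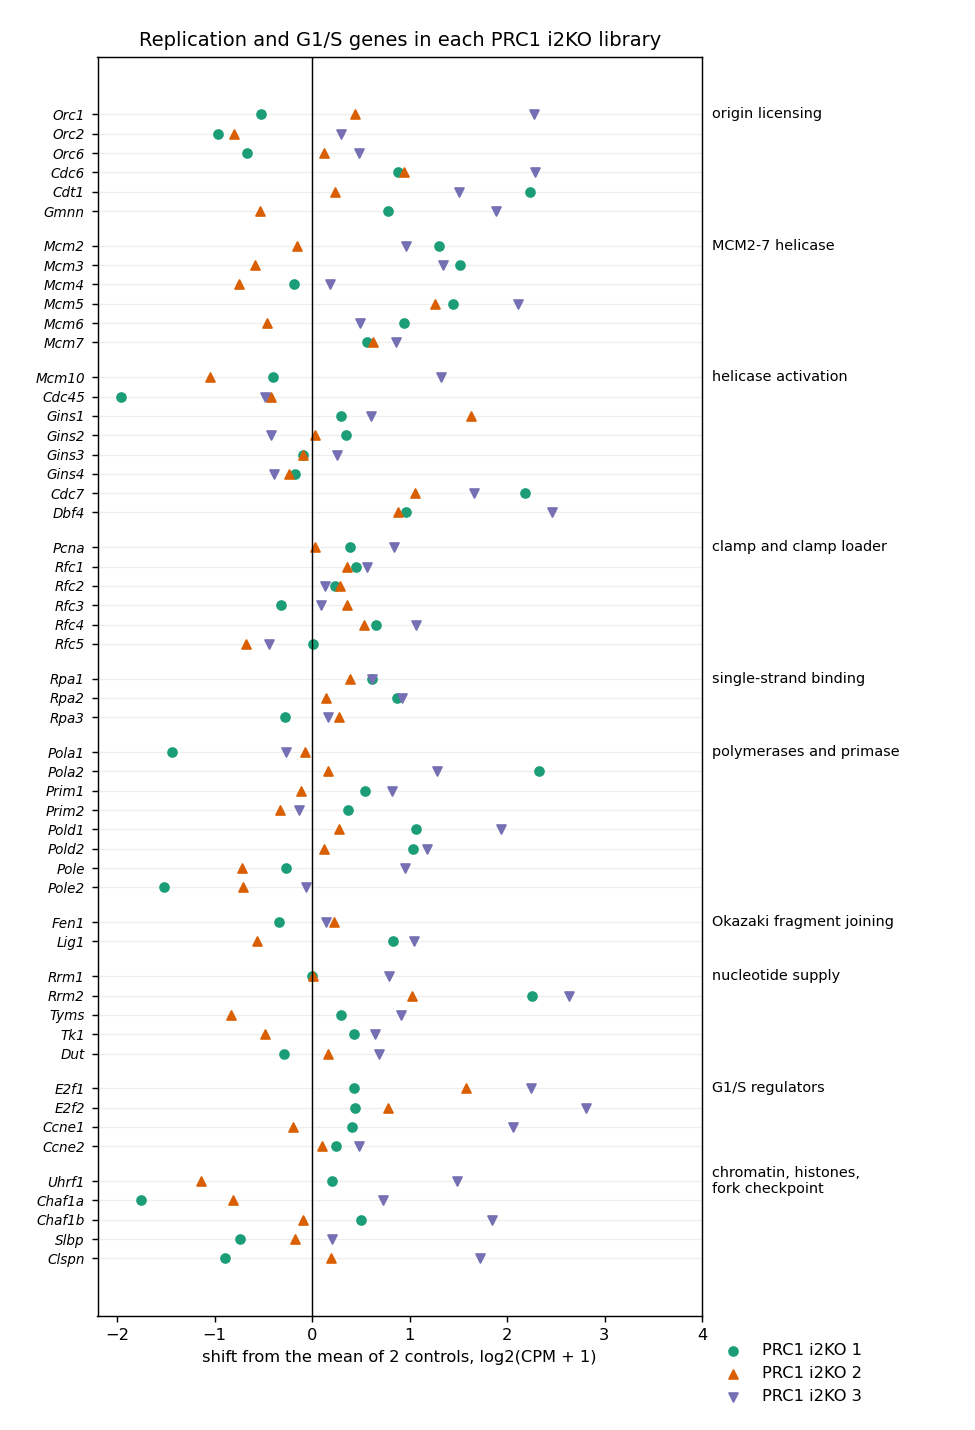
Each row is 1 of the 53 members, ordered by role, and each point is the shift of 1 PRC1 i2KO library from the mean of both controls on the log2(CPM + 1) scale, with a vertical line at no shift. Points of PRC1 i2KO 3 lie farthest to the right for most genes, and those of PRC1 i2KO 2 often lie left of the line, as for Mcm3, Uhrf1 and Mcm10.

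Among origin licensing genes, Cdc6 differed most. Cdc6 (ENSMUSG00000017499.15), the ATPase that recruits the helicase to origins, was at 0.122 and 0.714 CPM in Control 2 and 3 and at 1.56, 1.67 and 5.76 CPM in PRC1 i2KO 1, 2 and 3. Every PRC1 i2KO library lay above both controls, PRC1 i2KO 3 by far, from only 6 and 9 counts in the controls (log2 fold change 2.95 ± 1.14 (SE; edgeR adjusted p = 0.390)). Cdt1, the partner of CDC6 in loading, was at 1.299 and 4.92 CPM in Control 2 and 3 and at 16.4, 3.34 and 9.52 CPM in PRC1 i2KO 1, 2 and 3 (log2 fold change 1.68 (edgeR adjusted p = 0.496)). Here PRC1 i2KO 1 was highest and PRC1 i2KO 2 lay between the controls. Geminin, the CDT1 inhibitor encoded by Gmnn, was likewise not separated, at 0.873 and 1.67 against 2.84, 0.541 and 7.28 CPM (log2 fold change 1.502).

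The subunits of the origin recognition complex went no common way. Orc1, its cell-cycle-regulated ATPase, had 33, 3, 0, 42 and 188 counts in Control 2 and 3 and PRC1 i2KO 1, 2 and 3. The absence of counts in PRC1 i2KO 1 allows up to 0.137 CPM (3 counts, counting error only), while PRC1 i2KO 3 stood at 5.95 CPM. Orc6, the most abundant of the 6 licensing genes per length, was at 10.7 and 11.7 CPM in Control 2 and 3 and at 6.69, 12.3 and 16.1 CPM in PRC1 i2KO 1, 2 and 3, a log2 fold change of 0.06 (edgeR adjusted p = 0.976), and the groups overlapped. On the log2(TPM + 1) scale its sign was the opposite, at -0.53. Orc2 had a log2 fold change of -0.41, with PRC1 i2KO 1 and 2 below and PRC1 i2KO 3 above both controls.

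The MCM2-7 genes encode a ring of 6 different subunits, and their RNA did not move as a unit. Mcm5 (ENSMUSG00000005410.6) was at 2.50 and 2.697 CPM in Control 2 and 3 and at 8.80, 7.60 and 14.5 CPM in PRC1 i2KO 1, 2 and 3. All 3 PRC1 i2KO libraries lay above both controls, which stood close together. Its log2 fold change, 1.99 ± 0.52 (SE; edgeR adjusted p = 0.215), did not pass, though DESeq2 called it (adjusted p = 0.00178). Mcm7 was at 16.7 and 12.1 CPM in Control 2 and 3 and at 21.5, 22.5 and 26.8 CPM in PRC1 i2KO 1, 2 and 3, again without overlap but with a smaller gap (log2 fold change 0.70 ± 0.30 (SE; edgeR adjusted p = 0.440)). Its exons overlap Mir25 and Mir93 on the same strand and 2 genes on the other, so its value is uncertain to the extent that reads were shared.

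Mcm2, Mcm3 and Mcm6 shared another pattern, higher in PRC1 i2KO 1 and 3 and not in PRC1 i2KO 2. Mcm2 was at 5.08 and 4.601 against 13.4, 4.24 and 10.3 CPM, and Mcm3 at 6.84 and 3.01 against 15.1, 2.75 and 13.3 CPM, controls first. Mcm6 was at 28.5 and 18.2 against 44.7, 16.3 and 32.5 CPM, and in PRC1 i2KO 2 all 3 genes lay below both controls. Their log2 fold changes were 0.94, 1.06 and 0.41 (edgeR adjusted p = 0.603, 0.659 and 0.786). Mcm4 was the only subunit with a negative value, -0.24 (adjusted p = 0.862), at 22.3 and 35.3 against 24.5, 16.3 and 32.1 CPM.

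Per length, the 6 subunit RNAs were far from equal. By TPM, the deposited level per length, Mcm7 made up 30.0% to 61.0% of the summed level of the 6 genes and Mcm5 only 2.35% to 6.75%. Mcm5 had the smallest share in both controls, 2.35% and 2.51%, and reached 5.36%, 6.56% and 6.75% in PRC1 i2KO 1, 2 and 3. Mcm3 took 24.8% and 21.7% in PRC1 i2KO 1 and 3 but 4.11% in PRC1 i2KO 2, below the 11.9% and 12.9% of the controls.

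**Figure D3:**
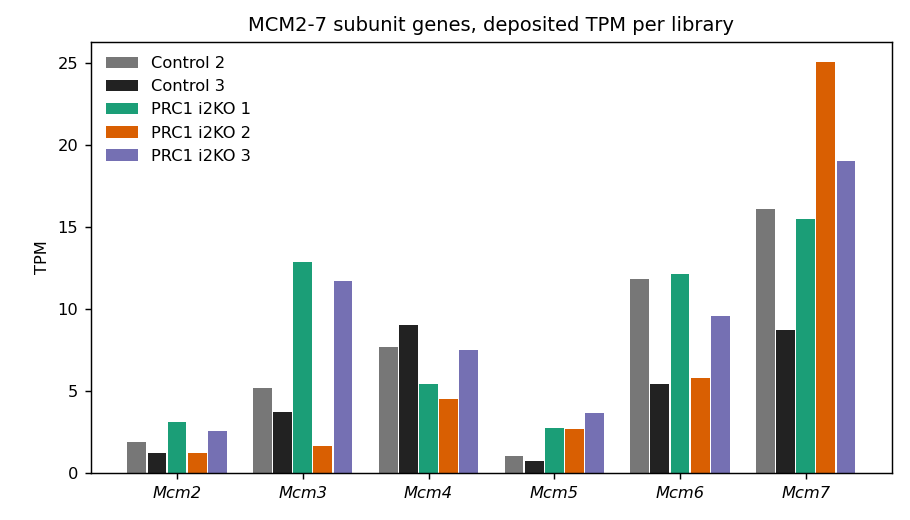
Bars give the deposited TPM of each MCM2-7 subunit gene in each of the 5 libraries, on an axis that starts at 0. Mcm5 is low throughout but higher in all 3 PRC1 i2KO libraries (2.69 to 3.65 TPM) than in Control 2 and 3 (1.03 and 0.726 TPM), and Mcm7 in PRC1 i2KO 2 is the tallest bar at 25.1 TPM.

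The kinase that fires loaded helicases stood out among the activation genes. Cdc7 (ENSMUSG00000029283.17), its catalytic subunit, was at 2.31 and 2.46 CPM in Control 2 and 3 and at 14.3, 6.05 and 9.74 CPM in PRC1 i2KO 1, 2 and 3. No PRC1 i2KO library overlapped the controls, and PRC1 i2KO 1 was highest. The log2 fold change was 2.07 ± 0.55 (SE; edgeR adjusted p = 0.225), called by DESeq2 (adjusted p = 0.00324). Dbf4, the regulatory subunit that CDC7 requires, was at 0.873 and 1.82 CPM in Control 2 and 3 and at 3.48, 3.23 and 11.6 CPM in PRC1 i2KO 1, 2 and 3, again above both controls throughout and highest in PRC1 i2KO 3. Its log2 fold change was 2.21 ± 0.82 (SE; edgeR adjusted p = 0.369).

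The other partners of the active helicase did not share this. Cdc45 had a negative log2 fold change, -1.16 (edgeR adjusted p = 0.704), at 2.72 and 6.11 against 0.321, 2.84 and 2.69 CPM, with PRC1 i2KO 1 far below the rest at 7 counts. Gins4, of the GINS complex and the most abundant activation gene per length, was the 1 member below both controls in all PRC1 i2KO libraries, at 14.6 and 13.0 against 12.1, 11.5 and 10.2 CPM. The gap was small and did not pass (log2 fold change -0.29 (edgeR adjusted p = 0.814)). By contrast Gins1 lay above both controls in all 3 libraries, at 0.528 and 1.27 against 1.28, 4.78 and 1.83 CPM (log2 fold change 1.59 (edgeR adjusted p = 0.587)), while Gins2 and Gins3 had values of 0.00 and -0.07. For Gins1, PRC1 i2KO 1 passed Control 3 by less than 1 count is worth in Control 3 (0.0793 CPM). Mcm10, which helps the helicase to start, was above both controls in PRC1 i2KO 3 alone (log2 fold change 0.47).

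Pcna, the sliding clamp that holds polymerases on DNA, was the most abundant member per length. It was at 71.3 and 52.7 CPM in Control 2 and 3 and at 80.5, 62.4 and 111 CPM in PRC1 i2KO 1, 2 and 3, or 91.9 and 42.5 against 55.5, 53.3 and 86.0 TPM in length-scaled values. PRC1 i2KO 1 and 3 lay above both controls and PRC1 i2KO 2 between them in CPM, while in TPM no PRC1 i2KO library lay above Control 2. In counts its log2 fold change was 0.45 ± 0.28 (SE; edgeR adjusted p = 0.610). Pcna has 2 annotated pseudogenes and Tyms 1, whose reads could have been split with the parent gene.

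Of the clamp loader genes, Rfc1, the large subunit, was at 49.7 and 46.8 CPM in Control 2 and 3 and at 66.3, 62.1 and 71.7 CPM in PRC1 i2KO 1, 2 and 3, above both controls in every PRC1 i2KO library by a small margin (log2 fold change 0.47 ± 0.20 (SE; edgeR adjusted p = 0.446)). In TPM it went the other way, at 53.3 and 37.7 against 26.5, 38.0 and 36.8 TPM, and the log2(TPM + 1) difference was -0.42. Its count per TPM, relative to the control mean and to the median gene of each library, was 1.63, 1.39 and 1.40 in PRC1 i2KO 1, 2 and 3, so that the estimated transcript length moved with this difference. Rfc4 was at 2.92 and 4.68 CPM in Control 2 and 3 and at 6.42, 5.82 and 8.89 CPM in PRC1 i2KO 1, 2 and 3 (log2 fold change 0.90 (edgeR adjusted p = 0.593)), without overlap. Rfc2 also lay above both controls throughout (0.23), whereas Rfc3 and Rfc5 did not (0.05 and -0.41).

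The genes of the single-strand binding complex RPA had values of 0.53, 0.39 and 0.07 for Rpa1, Rpa2 and Rpa3. Rpa1 was at 17.3 and 27.5 CPM in Control 2 and 3 and at 33.9, 28.9 and 33.9 CPM in PRC1 i2KO 1, 2 and 3, above both controls throughout (edgeR adjusted p = 0.555). In TPM 2 of its PRC1 i2KO libraries lay below both controls, at 13.1 and 15.9 against 8.34, 9.49 and 29.4 TPM, and its exons overlap another gene on the same strand. Rpa2 was far apart within the controls, at 23.5 and 5.39 CPM.

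Polymerase and primase genes were spread to both sides. Pola2, the accessory subunit of the priming polymerase α, was at 2.88 and 4.36 CPM in Control 2 and 3 and at 22.0, 4.11 and 10.1 CPM in PRC1 i2KO 1, 2 and 3. PRC1 i2KO 1 and 3 were high and PRC1 i2KO 2 lay between the controls. For Pola2 the log2 fold change was 1.74 ± 0.70 (SE; edgeR adjusted p = 0.416). Its catalytic partner Pola1 had -0.57, and the primase genes Prim1 and Prim2 had 0.45 and -0.00. Pold1, the catalytic subunit of the lagging-strand polymerase δ, was at 2.42 and 5.32 against 8.71, 4.62 and 16.8 CPM (log2 fold change 1.40 (edgeR adjusted p = 0.488)), and Pold2 had 0.92. Pole2, of the leading-strand polymerase ε, was the most abundant of the group per length and lower in PRC1 i2KO 1 and 2 than in both controls, at 27.1 and 20.8 against 7.61, 14.1 and 22.7 CPM (log2 fold change -0.69 (edgeR adjusted p = 0.615)), with the catalytic gene Pole at 0.18.

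At the joining of Okazaki fragments, Lig1, the replicative DNA ligase, was at 19.6 and 18.01 CPM in Control 2 and 3 and at 34.1, 12.4 and 39.9 CPM in PRC1 i2KO 1, 2 and 3. PRC1 i2KO 1 and 3 lay above and PRC1 i2KO 2 below both controls (log2 fold change 0.61 (edgeR adjusted p = 0.689)). The flap nuclease gene Fen1 had a value of -0.00 and stayed within the control range in all 3 libraries.

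In nucleotide supply, Rrm2 had the lowest adjusted p of all 53 members. Rrm2 (ENSMUSG00000020649.11), the S-phase subunit of ribonucleotide reductase, was at 2.72 and 4.92 CPM in Control 2 and 3 and at 21.5, 8.55 and 28.2 CPM in PRC1 i2KO 1, 2 and 3. Each PRC1 i2KO library lay above both controls, PRC1 i2KO 2 with the narrowest gap. The log2 fold change was 2.37 ± 0.58 (SE; edgeR adjusted p = 0.197), and DESeq2 called it (adjusted p = 0.00130). In TPM it was at 2.62 and 2.80 against 7.88, 4.03 and 11.1 TPM, also without overlap. Its large-subunit partner Rrm1 was not separated, at 22.8 and 27.5 against 24.9, 25.2 and 43.8 CPM (log2 fold change 0.32).

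The other nucleotide genes were highest in PRC1 i2KO 3 without a gap between the groups. Dut, which removes dUTP and was the most abundant of these genes per length, was at 28.7 and 27.4 CPM in Control 2 and 3 and at 22.8, 31.6 and 45.5 CPM in PRC1 i2KO 1, 2 and 3 (log2 fold change 0.25 (edgeR adjusted p = 0.835)). Tyms and Tk1, for thymidylate synthesis and salvage, had values of 0.16 and 0.26, and PRC1 i2KO 2 lay below both controls for each.

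The G1/S regulators had the highest median of the 10 role groups, 2.62 over 4 genes, all scarce. E2f1 (ENSMUSG00000027490.17), an activating E2F, was at 0.467 and 0.952 CPM in Control 2 and 3 and at 1.28, 4.06 and 7.05 CPM in PRC1 i2KO 1, 2 and 3. No PRC1 i2KO library overlapped the controls, though PRC1 i2KO 1 was close to them with 28 counts (log2 fold change 2.58 ± 0.93 (SE; edgeR adjusted p = 0.355)). E2f2, a second activator, was at 0.568 and 0.397 CPM in Control 2 and 3 and at 1.01, 1.53 and 9.36 CPM in PRC1 i2KO 1, 2 and 3, with a far higher value in PRC1 i2KO 3 than elsewhere (log2 fold change 3.003 ± 1.14 (SE; edgeR adjusted p = 0.382)). In TPM E2f2 overlapped, at 0.553 and 0.0760 against 0.164, 0.320 and 1.63 TPM. Of the cyclins that drive CDK2 at this transition, Ccne1 was by far highest in PRC1 i2KO 3, at 0.162 and 0.397 against 0.687, 0.113 and 4.302 CPM (log2 fold change 2.66 (edgeR adjusted p = 0.584)). Ccne2 was nearly level, at 3.43 and 2.86 against 3.90, 3.43 and 4.78 CPM (log2 fold change 0.36 (edgeR adjusted p = 0.880)).

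**Figure D4:**
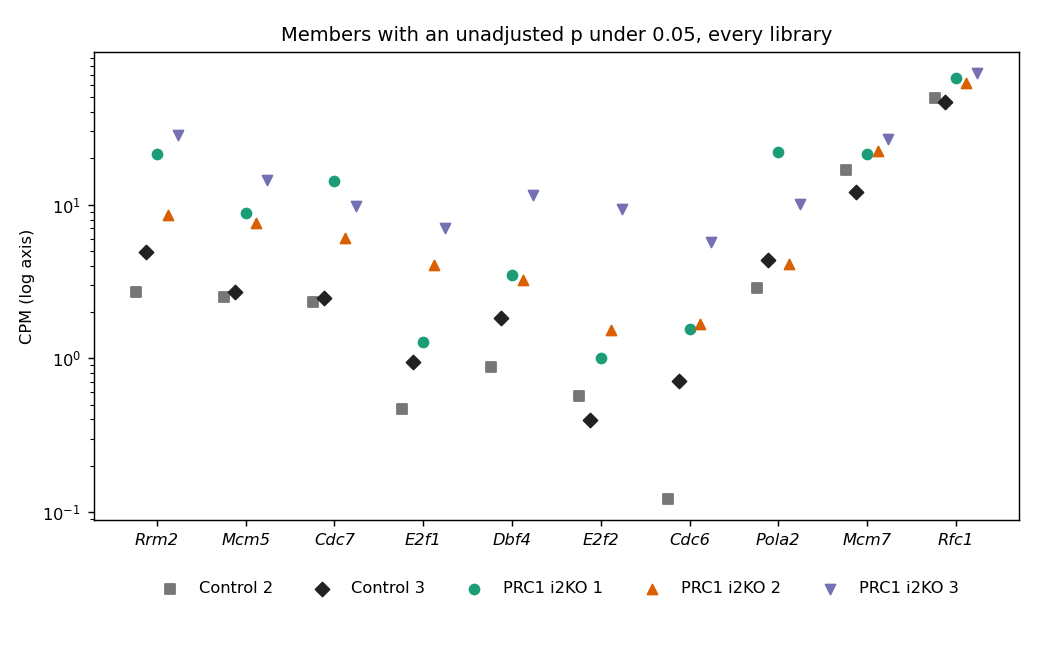
Points give the CPM, on a log axis, of the 10 members with an unadjusted p under 0.05, in each of the 5 libraries (squares and diamonds for the controls, circles and triangles for PRC1 i2KO 1, 2 and 3). PRC1 i2KO points lie above both controls for all of these genes except Pola2, where PRC1 i2KO 2, at 4.11 CPM, lies between 2.88 and 4.36 CPM.

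Of the 5 genes that package new DNA or guard the fork, all lay above both controls in PRC1 i2KO 3. In PRC1 i2KO 1 and 2, 1 lay above and 3 lay below both controls in each. Chaf1b, of the histone chaperone CAF-1, was at 0.772 and 1.11 CPM in Control 2 and 3 and at 1.74, 0.812 and 5.95 CPM in PRC1 i2KO 1, 2 and 3 (log2 fold change 1.60 (edgeR adjusted p = 0.613)), and its partner Chaf1a had -0.41. Uhrf1, which guides maintenance DNA methylation, was at 4.12 and 7.54 against 6.60, 2.01 and 17.5 CPM (0.59). Clspn, the mediator of the fork checkpoint, was at 3.47 and 2.54 against 1.15, 3.54 and 12.1 CPM (0.89). Slbp, which binds histone mRNA and was the most abundant of the group per length, was at 26.9 and 26.8 against 15.7, 23.7 and 31.2 CPM, with a log2 fold change of -0.19 (edgeR adjusted p = 0.887).

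In all, 13 of 53 members exceeded both controls in all 3 PRC1 i2KO libraries in CPM (24.5%, against 14.6% of all genes), and Gins4 alone lay lower (1.89%, against 15.3%). The 13 were Cdc6, Mcm5, Mcm7, Gins1 (by less than 1 Control 3 count), Cdc7, Dbf4, Rfc1, Rfc2, Rfc4, Rpa1, Rrm2, E2f1 and E2f2. In TPM 8 members did so (15.1%, against 7.01%), namely Cdc6, Mcm5, Gins1, Cdc7, Dbf4, Pola2, Rrm2 and E2f1. In TPM 4 lay lower, Mcm4, Gins4, Rfc5 and Slbp (7.55%, against 23.0%). With 1 library left out, fewer values have to be exceeded and the share of all genes rises as well. Without PRC1 i2KO 2 the count in CPM was 28 (52.8%, against 21.4% of all genes), and without Control 3 it was 21 (39.6%, against 24.7%). It was 18 without Control 2 or PRC1 i2KO 1 (34.0%, against 25.5% and 20.3%) and 13 without PRC1 i2KO 3 (24.5%, against 21.0%).

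Further genes of the pathway come from lists that, like the members, were chosen with earlier results of these data known. Of 46 other replication genes, 0 rose and 0 fell by edgeR (3 and 0 without adjustment of the p-values, 1 and 0 by DESeq2, and none by limma-voom), with a median log2 fold change of 0.14 and 28 positive. Of all genes, 7.43% were higher without adjustment, 3.57% were by DESeq2, and 50.4% were positive. The median of the 46 genes was 0.033 without PRC1 i2KO 3 and 0.26 without Control 3. On the log2(TPM + 1) scale it was -0.19, the same as that of all genes. The histone chaperone gene Asf1b was at 0.0609 and 0 against 4.12, 0.383 and 3.67 CPM, with 3 counts over both controls. Its mean of 2.73 CPM in PRC1 i2KO was 56.2 times the control level (95% counting interval 19.2 to 273), but the libraries lay far apart and PRC1 i2KO 2 was the lowest of the 3 (edgeR adjusted p = 0.211). The fitted log2 fold change, 5.88, ran from 5.41 to 6.37 without Control 3 or 1 of the PRC1 i2KO libraries, and without Control 2 no control count is left. Ticrr, which helps activate origins, was at 4.24 and 3.17 against 7.15, 3.07 and 35.1 CPM, by far highest in PRC1 i2KO 3. Dtl, Rnaseh2b, Rnaseh2c and Pole3 had log2 fold changes of 1.02, 0.80, 1.25 and 0.60, with adjusted p-values between 0.368 and 0.528.

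Of 32 other G1/S regulators, 0 rose and 0 fell by edgeR (7 and 0 without adjustment, 4 and 0 by DESeq2, none by limma-voom), with a median of 0.34. Here too, 7.43% of all genes were higher without adjustment and 3.57% by DESeq2. The D-type cyclins start the inactivation of the retinoblastoma proteins. Ccnd2 was at 49.4 and 57.4 CPM in Control 2 and 3 and at 88.6, 105 and 112 CPM in PRC1 i2KO 1, 2 and 3 (log2 fold change 0.94 ± 0.21 (SE; edgeR adjusted p = 0.165)), and Ccnd1 at 108 and 105 against 206, 153 and 146 CPM (0.67 (edgeR adjusted p = 0.284)). Neither overlapped the controls. PRC1 i2KO 2 was the lowest of the 3 for neither, and for Ccnd1 PRC1 i2KO 3 was. Cks1b, a CDK subunit, had 1.46 (edgeR adjusted p = 0.225), E2f3 1.63 (edgeR adjusted p = 0.349), the phosphatase gene Cdc25a 1.12 (edgeR adjusted p = 0.384) and the CDK inhibitor gene Cdkn2b 2.47 (edgeR adjusted p = 0.332).

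The later cell cycle showed the same order of libraries with wider distances. Of 42 G2 and mitosis genes, 0 rose and 0 fell by edgeR (19 and 0 without adjustment, 9 and 0 by DESeq2, none by limma-voom), with a median of 1.99. Over all genes, 7.43% were higher without adjustment and 3.57% by DESeq2. The median was 1.07 without PRC1 i2KO 3, and 0.93 on the log2(TPM + 1) scale. Their median shift was 1.17, 0.094 and 2.44 in PRC1 i2KO 1, 2 and 3, and 37 of the 42 were highest in PRC1 i2KO 3 among the 3 libraries. Mki67, the proliferation marker, was at 13.2 and 34.0 CPM in Control 2 and 3 and at 173, 38.1 and 404 CPM in PRC1 i2KO 1, 2 and 3. Top2a and Ccna2, which are made from S phase onward, were at 3.47 and 15.2 against 55.4, 8.17 and 135 CPM and at 1.02 and 4.52 against 10.3, 3.63 and 26.1 CPM, and for both PRC1 i2KO 2 lay between the controls. In bulk RNA, more cells in cycle and more RNA per cycling cell cannot be told apart.

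Other measures also differed between the PRC1 i2KO libraries in that order or another. Mitochondrial ribosomal RNA was higher in PRC1 i2KO 3 and 1 than in PRC1 i2KO 2, as was the members' median shift in CPM. The summed TPM of the 18 bulge markers was 11566 and 8578 in Control 2 and 3 against 7689, 10279 and 6875 in PRC1 i2KO 1, 2 and 3, lowest in PRC1 i2KO 3. Their summed CPM was 22892 and 22228 against 22185, 23373 and 19020, so PRC1 i2KO 1 was near Control 3 on that scale. All genes had a median shift on the log2(TPM + 1) scale of -0.30, -0.095 and -0.22 in PRC1 i2KO 1, 2 and 3. In CPM, 7 of the 18 bulge markers lay below both controls throughout (15.3% of all genes did) and 1 above (14.6% of all genes did). The 12 markers of interfollicular and differentiating epidermis had a summed TPM of 1225 and 940 in Control 2 and 3 against 930, 3547 and 1495, highest in PRC1 i2KO 2, and 4 lay above both controls throughout in CPM. The 12 upper follicle and sebaceous markers (Awat1 at 0 in both controls) had a summed TPM of 291 and 337 in Control 2 and 3 against 829, 432 and 455, and 5 of the 11 tested lay above both controls throughout in CPM.

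The 12 hair germ and matrix markers, of cells that divide early in a new hair, had a summed TPM of 143 and 136 in Control 2 and 3 against 157, 155 and 129. Their summed CPM was 439 and 550 against 698, 531 and 586. PRC1 i2KO 3 thus lay below both controls in TPM and above both in CPM. In CPM, Lef1, Msx1, Wnt10a and Gli1 lay above both controls in each PRC1 i2KO library, as did 14.6% of all genes. Over the 12 genes the median difference was 0.53 (log2). It was negative for Dlx3, Msx2 and Bmp2 (-0.81, -0.18 and -0.17) and 0.01 for Cdh3. By edgeR 0 of the 12 were called, and DESeq2 called Lef1, Msx1 and Wnt10a higher, where it called 3.57% of all genes higher. Of the 10 listed fibroblast markers 9 are in the table, and their summed TPM was 7.61 and 10.3 in Control 2 and 3 against 23.2, 24.3 and 39.3, with Col3a1 and Twist1 at 0 in both controls. Of 12 listed immune markers, 10 are in the table with a summed TPM of 7.29 and 14.1 in Control 2 and 3 against 28.3, 14.8 and 22.4, and Cd3e, Cd3g, Trdc and Cd207 were at 0 in at least 1 library. The part of these cell types, of the sort markers and of mitochondrial RNA in the members' values was not tested.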

How the data were processed

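The authors deposited 1 table of expected counts and TPM values for 5 libraries. Tools named in the submitters' processing notes, with no roles, are STAR 2.7.9a, RSEM 1.3.3 and DESeq2 1.38.2, and the build is mm39; whether strand was used in counting is not stated. Deposited expected counts are estimates (60.4% were not whole) and were rounded. Per the file headers the TPM values are the authors' own length-scaled values. Totals of 11626006 to 43307694 counts set the precision; intervals and floors of 3 counts reflect counting error alone.

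The test was edgeR's quasi-likelihood F test (version 4.0.16, R 4.3.3) with group alone, after filterByExpr with a minimum count of 10 and TMM, with Benjamini-Hochberg adjustment at 0.05. Alternatives were DESeq2 1.42.0, limma-voom (limma 3.58.1), limma on log2(TPM + 1) and log2(TPM + 0.1), other scaling and filters, blocks and leaving out each library. On simulated counts for this comparison (22181 genes, 200 changed), edgeR recovered 19.4%, 67.2% and 74.2% of 2-fold, 4-fold and 8-fold changes, with 3.60% of its calls on unchanged genes. The simulation used edgeR's own scaling and trend of spread, so it can favour edgeR.

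Members, role groups and lists were chosen with earlier results of these data known. Members are named with values if they had an unadjusted p under 0.05, a call by edgeR or DESeq2, or the largest change or highest mean TPM of their role group; beyond them Mki67, Top2a, Ccna2 and the 6 lowest p-values of each other list follow the rule, and further members are given as the account of each role group. Overlaps come from GENCODE M21 of GRCm38, where 3 members overlap exons of a gene on their strand and 15 others only on the opposite one, so shared reads cannot be told apart for these.

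The marker lists not described in the report, as summed TPM in Control 2 and 3 against the PRC1 i2KO range, were melanocyte (71.2 and 44.5 against 20.8 to 38.1), endothelial, mural and muscle (11.5 and 5.42 against 5.64 to 11.2) and Schwann cell and adipocyte (8.10 and 4.55 against 4.45 to 6.79).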

Additional observations from a re-analysis of the deposited data

How the results depend on the processing

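No member was called higher or lower by edgeR under any scaling, filter, block or left-out library that was run, nor by limma; DESeq2 called 3 higher. The smallest adjusted p of a member by edgeR was 0.0537 with the replicate block by title number, 0.0586 with no filter and 0.0691 without PRC1 i2KO 2. Over all genes, 28 were called higher and 0 lower by edgeR, 754 and 166 by DESeq2, 4 higher by limma-voom, 140 and 12 with no filter, 2 and 1 on log2(TPM + 1), and 7 and 5 on log2(TPM + 0.1); leaving out each library gave 4 to 39 higher and 0 to 4 lower (without Control 2, 3 and PRC1 i2KO 1, 2 and 3 the higher calls were 4, 8, 8, 39 and 14). The members' median log2 fold change ranged from 0.21 to 0.68 over the fits without 1 library, and was 0.078 and 0.089 on the TPM scales, where that of all genes was -0.19 and -0.33. The count of members above both controls throughout was 8 on both TPM scales and 13 to 28 when a library was left out (20.3% to 25.5% of all genes). Medians of the other replication genes were -0.19 and -0.27 and those of the other G1/S regulators 0.043 and 0.045 on log2(TPM + 1) and log2(TPM + 0.1). Signs turned, with no call, for Orc6 (-0.53 and -0.59), Rfc1 (-0.42 and -0.43), Rpa1 (-0.099 and -0.12), Dut (-0.17 and -0.18) and Ticrr (-0.39 and -0.47) on the 2 TPM scales, and, when 1 library was left out, for Orc6 (-0.24 to 0.34) and Dut (-0.045 to 0.46), both negative without PRC1 i2KO 3, and Slbp (-0.45 to 0.031), positive without PRC1 i2KO 1. Mki67 was called with no filter (adjusted p = 0.0492), with the title block (0.00733) and without PRC1 i2KO 2 (0.0473), and Top2a with the title block (0.0219). The causes were not tested.

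The titles number the controls 2 and 3 and the descriptions 1 and 2, so both numberings were tried as a replicate block, the second chosen after seeing the data. Deviations of same-numbered libraries from their group means correlated at 0.065 and 0.041 by title, so the numbers do not show a pairing. With 2 controls their deviations mirror each other by construction, so this check could hardly show or exclude one. By title PRC1 i2KO 1 has no control of its number, and by description PRC1 i2KO 3 has none. A library alone in its block adds nothing to the fitted group difference, so each block value, here and above, rests on the other libraries. With the block by title 140 genes were higher and 25 lower, the members' median was 0.37 and Slbp had 0.014. With the block by description 10 genes were higher and 0 lower, the median was 0.20, Orc6 had -0.31 and Dut -0.064.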
